A study of Homo sapiens with 4 samples.

Results

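The genes described here are the transcriptional coactivators YAP1 and WWTR1 (which encodes the protein TAZ), the TEAD factors TEAD1, TEAD3 and TEAD4, and 5 genes grouped as their targets, CYR61 (CCN1), CTGF (CCN2), ANKRD1, AMOTL2 and AJUBA. They were chosen by name, with earlier results of these data known. All 10 were found among the 58735 genes of the deposited count table. All 10 were also among the 14585 genes kept, which averaged 1 CPM (counts scaled to library size) or more over the 4 libraries. RNA came from the human triple-negative breast cancer cell line MDA-MB-231, transduced with a doxycycline-inducible histone reporter (TetOn-H2BeGFP). All 4 populations went through the same labelling: doxycycline at 5 μg/ml for 3 days, Claret and Violet dyes, and a chase of 12 days in which dividing cells dilute the label. Claret, eGFP and Violet are the populations sorted as the 1% of cells that retained most of that label, here called slow-cycling, whereas Bulk went through the sorter without a gate on fluorescence. Each population is 1 library, so no difference below has a replicate check, and whether the transduced line is 1 clone is not given in the sources used here.

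YAP and TAZ carry no DNA-binding domain and reach their target genes by binding TEAD factors. In the Hippo pathway the kinases MST1 and MST2 (STK4 and STK3) activate the kinases LATS1 and LATS2. LATS1 and LATS2 phosphorylate YAP and TAZ and thereby hold them in the cytoplasm, so that much of their control lies after transcription. In breast cancer cells YAP, TAZ and TEAD occupy many enhancers together with AP-1, the FOS and JUN factor named in the title of the series.

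Libraries are named by their titles. In each sample the treatment field names another sort than the title, and with that field the library titled Violet would be the un-gated one. The results below that compare with Bulk rest on the titles, and the closing section gives the values under the other grouping. Of 14 cell-cycle genes described below, 13 were called lower in each library titled Claret, eGFP or Violet than in the one titled Bulk, which the treatment field names as a Claret sort. Of all genes kept, 6.71%, 7.62% and 6.95% were called lower in Claret, eGFP and Violet. Summed counts were 15508179 to 16976909 per library, and genes of the mitochondrial genome held 4.18% of reads in Bulk against 5.06% to 5.48% in the slow-cycling libraries. The line's identity was looked at through its markers, with levels in FPKM (reads scaled to library size and transcript length). VIM and CD44 were at 156 to 211 and 33.0 to 39.8 FPKM, PGR had 0 reads (up to 0.193 CPM), and ESR1 and CDH1 had at most 7 and 3 reads. ERBB2, low or absent by the marker list, was at 8.54 to 9.06 FPKM, GATA3 at 1.35 to 1.78 and EPCAM at 0.692 to 1.515. CAV1, high by that list, was at 113 FPKM in Bulk and 57.4 to 64.3 in the others. PDGFRB, a marker of fibroblasts and pericytes, had 201 reads in Bulk against 421 to 431 in the others, whereas COL1A1, another fibroblast marker, was at 1.86 to 2.31 FPKM and the leukocyte marker PTPRC had at most 2 reads. The part of these differences in mitochondrial reads and PDGFRB in the results below was not tested.

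The DNA just upstream of the members is shown first, because TEAD factors bind a short motif there in some YAP/TAZ targets. RefSeq windows of 250 bases before a transcription start (GRCh38.p14) were matched for 7 of the 10 members, with 10 starts in all. They were searched on both strands for the TEAD motif GGAATG, which reads CATTCC from the other strand, and for the AP-1 motif TGANTCA, which reads the same on both strands and shares no bases with a TEAD match here. The window of CTGF, chr6:131951373-131951622 on the minus strand, is printed 5′ to 3′ because it holds the most TEAD matches of the members, with the matches in capitals.
CTGF: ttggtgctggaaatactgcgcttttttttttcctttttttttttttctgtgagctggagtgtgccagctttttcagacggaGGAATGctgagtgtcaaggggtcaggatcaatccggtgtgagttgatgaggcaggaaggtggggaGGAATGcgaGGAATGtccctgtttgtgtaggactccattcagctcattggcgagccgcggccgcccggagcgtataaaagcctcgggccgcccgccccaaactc
The 3 matches of CTGF start 169, 104 and 95 bases before its transcription start. Windows with 3 or more matches made up 0.0826% of the 35116 windows of this length in the RefSeq table, and windows with at least 1 made up 11.9%.

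The matches of the other members are printed with their flanks, so that they can be compared with those of CTGF. ANKRD1 had 2 TEAD matches and 1 AP-1 match. AMOTL2, AJUBA and YAP1 had 1 TEAD match each, at 1 of 2 annotated starts for AMOTL2 and AJUBA. Capitals mark the motif, and coordinates are those of the printed stretch on the gene's strand.
ANKRD1, TEAD, chr10:90921290-90921319, minus strand: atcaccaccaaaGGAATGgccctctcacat
ANKRD1, TEAD, chr10:90921198-90921227, minus strand: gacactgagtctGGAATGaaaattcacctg
ANKRD1, AP-1, chr10:90921265-90921293, minus strand: acatttcttccTGATTCAcatattcagca
AMOTL2, TEAD, chr3:134374499-134374528, minus strand: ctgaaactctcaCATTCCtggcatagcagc
AJUBA, TEAD, chr14:22976884-22976913, minus strand: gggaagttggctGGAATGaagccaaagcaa
YAP1, TEAD, chr11:102110273-102110302, plus strand: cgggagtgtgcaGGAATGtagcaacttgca
The AMOTL2, AJUBA and downstream ANKRD1 TEAD stretches also lie within annotated exons of these genes (GENCODE 29). The windows of WWTR1 and TEAD3 held neither motif, and no other member's window held the AP-1 motif, which was in 6.57% of all windows. No window was matched for CYR61, TEAD1 or TEAD4. A match describes these letters and is not a measured binding site.

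**Figure D1:**
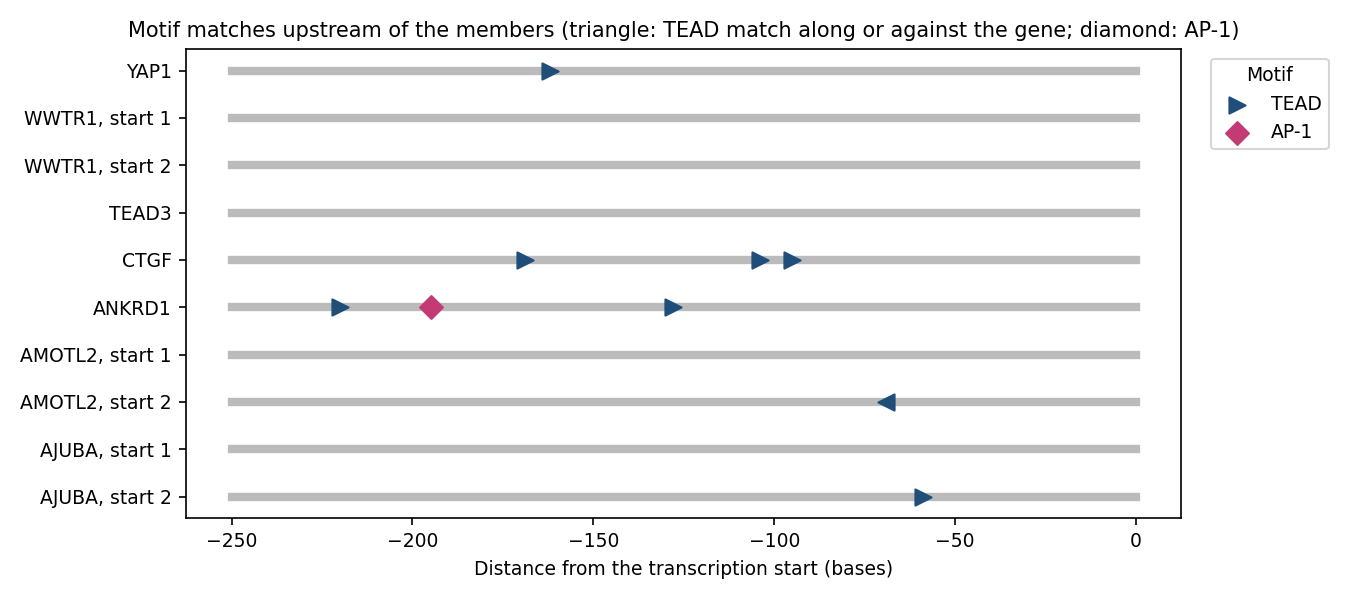
Motif matches in the 250 bases before each matched transcription start of the members, by distance from the start; triangles are TEAD matches pointing along or against the gene, and the diamond is the AP-1 match. CTGF has 3 TEAD matches, ANKRD1 has 2 with an AP-1 match between them, and WWTR1 and TEAD3 have none.

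Factors and targets differed in direction on balance, with much spread within each group. The median log2 ratio to Bulk of the 5 factors was -0.30 in Claret and -0.30 in eGFP, and -0.16 in Violet, where a filter at 10 CPM put it at -0.083. For the 5 targets it was 0.85, 0.73 and 0.81, while the median over all genes kept was -0.0088, -0.012 and 0.0052. Each factor median was the value of YAP1, and each target median was that of AJUBA. The 18 other genes of a wider YAP/TAZ target signature, described below, had medians of 0.061, 0.046 and 0.21. Summed FPKM of the targets was 715 in Bulk, then 1447, 1445 and 1239 in Claret, eGFP and Violet, against 117 in Bulk and 99.8, 97.6 and 104 for the factors. CYR61 alone made up 71.1% of the target sum in Bulk against 77.2% to 81.5% in the others, and without it the target sums were 207, 293, 267 and 283. In these bulk libraries more cells with a transcript and more transcript per cell cannot be told apart.

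**Figure D2:**
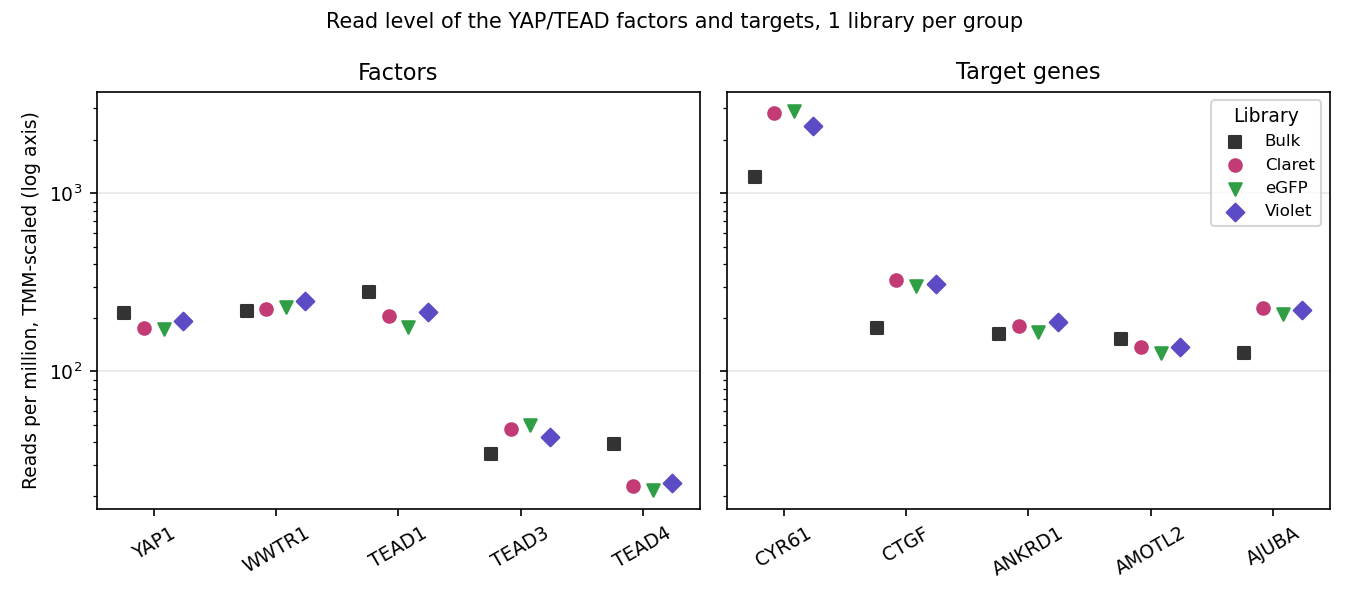
TMM-scaled CPM (log axis) of each factor and target in the 4 libraries, 1 point per library. CYR61 lies above 1000 in all 4 libraries, and Bulk is the lowest library for CYR61, CTGF, AJUBA, ANKRD1, WWTR1 and TEAD3 and the highest for YAP1, TEAD1, TEAD4 and AMOTL2.

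Separate thresholds were used for size and for counting error. A gene was called when an exact binomial test on the reads of 2 libraries gave a Benjamini-Hochberg adjusted p under 0.05 over all genes kept and the log2 ratio was at least 1 in size (2-fold). A gene was past counting error when its adjusted p was under 0.05 whatever the size. This test compares 2 libraries and knows only the noise of counting reads, not the variation between cultures. CYR61 was the 1 of the 10 members called higher, in Claret and in eGFP, with 0 in Violet, and 0 members were called lower in each. Over all genes kept, 11.2% were called higher and 6.71% lower in Claret, 11.8% and 7.62% in eGFP, and 11.5% and 6.95% in Violet.

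Past counting error were 4 of the 5 targets on the higher side in Claret and 3 in eGFP, and 4 in Violet, and 1 target on the lower side in each. Of the 5 factors, 3 were on the lower side in each library, and 1, 2 and 2 on the higher side. Over all genes kept, 33.0% were past counting error on the higher side and 35.3% on the lower in Claret, 33.6% and 35.9% in eGFP, and 33.9% and 34.9% in Violet. With so large a share of all genes past this threshold, the sizes below carry more than the counts. When the variation between cultures was set, by assumption, to a coefficient of 0.2 in edgeR's exact test, CYR61 was the 1 member with an adjusted p under 0.05 in Claret and eGFP (0.0406 and 0.0296). In Violet its adjusted p by this edgeR exact test was 0.127, and the lowest value of any other member in the 3 libraries was 0.162. Under that assumption 10.3%, 11.9% and 10.8% of all genes passed in Claret, eGFP and Violet.

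**Figure D3:**
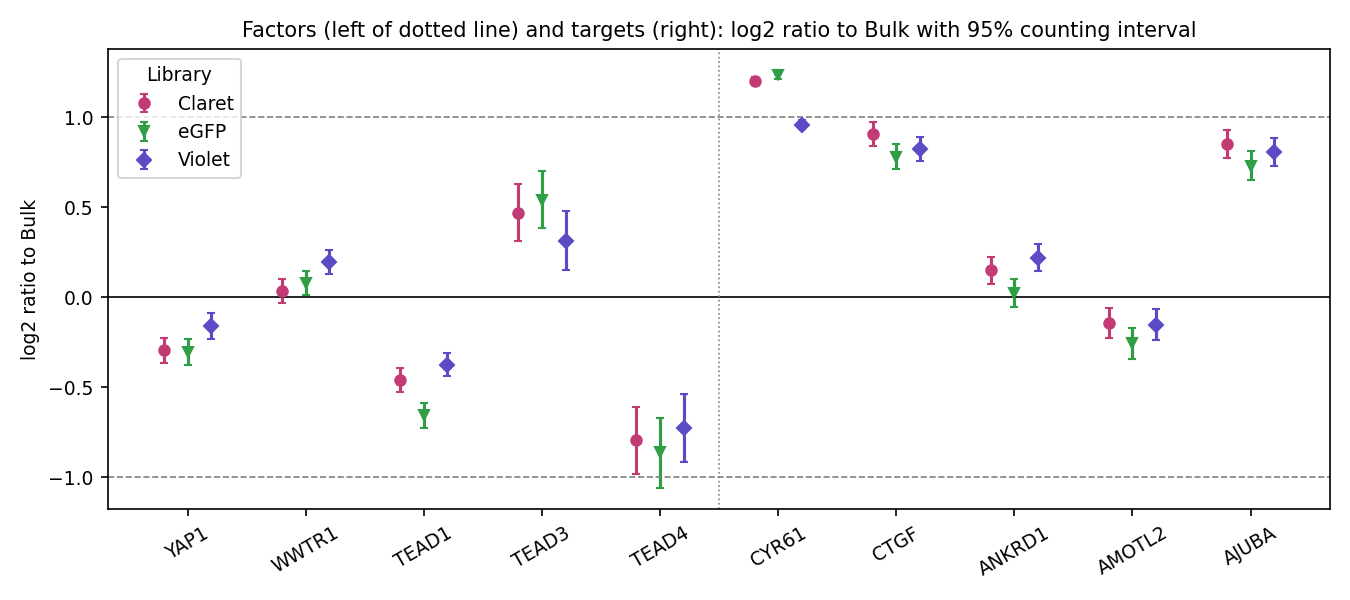
Log2 ratio to Bulk of each member in Claret, eGFP and Violet, with 95% exact intervals that cover counting error; dashed lines mark a ratio of 1 in size. CYR61, CTGF and AJUBA lie between 0.73 and 1.24, and TEAD4 is the lowest member at -0.86 to -0.72.

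Among the targets, CYR61 (ENSG00000142871, chromosome 1, 85580761 to 85583962) stood highest in level and in difference. It encodes a secreted matricellular protein that binds integrins. Its level was 1232 CPM in Bulk against 2833 in Claret and 2905 in eGFP, and 2393 in Violet. Bulk was the lowest library and Violet the lowest of the slow-cycling ones. The log2 ratios to Bulk were 1.20 (95% interval 1.18 to 1.22), 1.24 (1.21 to 1.26) and 0.96 (0.93 to 0.98), so that Violet lay just under 2-fold. Scaling by summed counts or a filter at 10 CPM put Violet just over it, at 1.01 and 1.03. The transcript took 0.121% of all reads in Bulk (95% exact binomial interval 0.119% to 0.123%), 0.283% in Claret (0.281% to 0.286%) and 0.291% in eGFP (0.288% to 0.294%), and 0.243% in Violet (0.241% to 0.246%). Per length, CYR61 ranked 42nd of all genes in Bulk and 22nd, 21st and 25th in Claret, eGFP and Violet.

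CTGF (ENSG00000118523, chromosome 6, 131948176 to 131951373), a secreted protein of the same CCN family, showed the next largest differences of the targets in each slow-cycling library. It had 175 CPM in Bulk, then 328, 301 and 310 in Claret, eGFP and Violet. The log2 ratios were 0.90 (0.84 to 0.97), 0.78 (0.71 to 0.85) and 0.82 (0.76 to 0.89), none of which was called, and each interval overlapped that of AJUBA. Unlike CYR61, CTGF did not have its lowest slow-cycling value in Violet. Its difference between eGFP and Violet was within counting error, at a log2 ratio of -0.043 (-0.10 to 0.015). The ratio of CTGF to CYR61 within a library does not depend on scaling, and relative to Bulk it was 0.815 in Claret and 0.729 in eGFP, and 0.912 in Violet. Its exons share 8.34% of their bases with those of AL133346.1 on the other strand, which had at most 1 read.

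AJUBA (ENSG00000129474, chromosome 14, 22971174 to 22982642) followed CTGF closely. It encodes a LIM-domain protein that binds LATS kinases and restrains them, so that it acts upstream of YAP as well as being listed as a target. Its level was 126 CPM in Bulk against 228 in Claret and 210 in eGFP, and 221 in Violet. Bulk was again the lowest library, and the log2 ratios were 0.85 (0.77 to 0.93), 0.73 (0.65 to 0.81) and 0.81 (0.73 to 0.89), not called.

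ANKRD1 and AMOTL2 did not share these differences. ANKRD1 (ENSG00000148677, chromosome 10, 90912096 to 90921276) encodes an ankyrin-repeat protein that is strongly induced by YAP in many cells. Its level was 163 CPM in Bulk against 181 in Claret and 166 in eGFP, and 190 in Violet. The log2 ratio was 0.15 in Claret and 0.22 in Violet, and 0.023 in eGFP (-0.06 to 0.10), where the sign changed on the scale log2(FPKM + 1). In eGFP the difference was within counting error (exact binomial test, adjusted p = 0.63). Relative to Bulk, the ratio of ANKRD1 to CYR61 within a library was 0.483 (95% interval 0.457 to 0.510) in Claret, and 0.431 and 0.600 in eGFP and Violet.

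AMOTL2 (ENSG00000114019, chromosome 3, 134355874 to 134375479) was the target that lay below Bulk in each slow-cycling library. It encodes an angiomotin-family junction protein that binds YAP and holds it in the cytoplasm. The level was 152 CPM in Bulk, then 138, 128 and 137 in Claret, eGFP and Violet. The log2 ratios were -0.14 (-0.23 to -0.06), -0.25 (-0.34 to -0.17) and -0.15 (-0.24 to -0.07), past counting error but far from 2-fold. Relative to Bulk, the ratio of AJUBA to AMOTL2 within a library was 1.99 in Claret and 1.98 in eGFP, and 1.94 in Violet. Per length, AMOTL2 was above AJUBA in Bulk (25.8 and 21.4 FPKM) and below it in Claret (23.1 and 38.2 FPKM).

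The coactivators differed from Bulk by less than CYR61, CTGF and AJUBA. YAP1 (ENSG00000137693, chromosome 11, 102110461 to 102233423) was at 214 CPM in Bulk against 174 in Claret and 173 in eGFP, and 192 in Violet. Bulk was the highest library, and the log2 ratios were -0.30 (-0.37 to -0.22), -0.30 (-0.38 to -0.23) and -0.16 (-0.23 to -0.09). WWTR1 (ENSG00000018408, chromosome 3, 149517235 to 149736714) was at 217 CPM in Bulk against 223 in Claret and 230 in eGFP, and 249 in Violet. Its log2 ratios were 0.036 (-0.03 to 0.10), 0.079 (0.01 to 0.15) and 0.20 (0.13 to 0.26), and in Claret it was within counting error (exact binomial test, adjusted p = 0.352).

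The balance between the 2 coactivators moved toward TAZ transcripts. The ratio of WWTR1 to YAP1 in FPKM was 0.761 in Bulk against 0.957 in Claret and 0.991 in eGFP, and 0.972 in Violet. Relative to Bulk it was 1.26 (95% interval 1.18 to 1.35), 1.30 (1.22 to 1.40) and 1.28 (1.195 to 1.37), a quantity that library scaling cannot alter. Such pairs of members were chosen after their counts had been seen. About 10.0% of the exon bases of YAP1 and 9.45% of those of WWTR1 overlap an antisense gene, AP000942.2 with 0 reads and WWTR1-AS1 with at most 10.

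**Figure D4:**
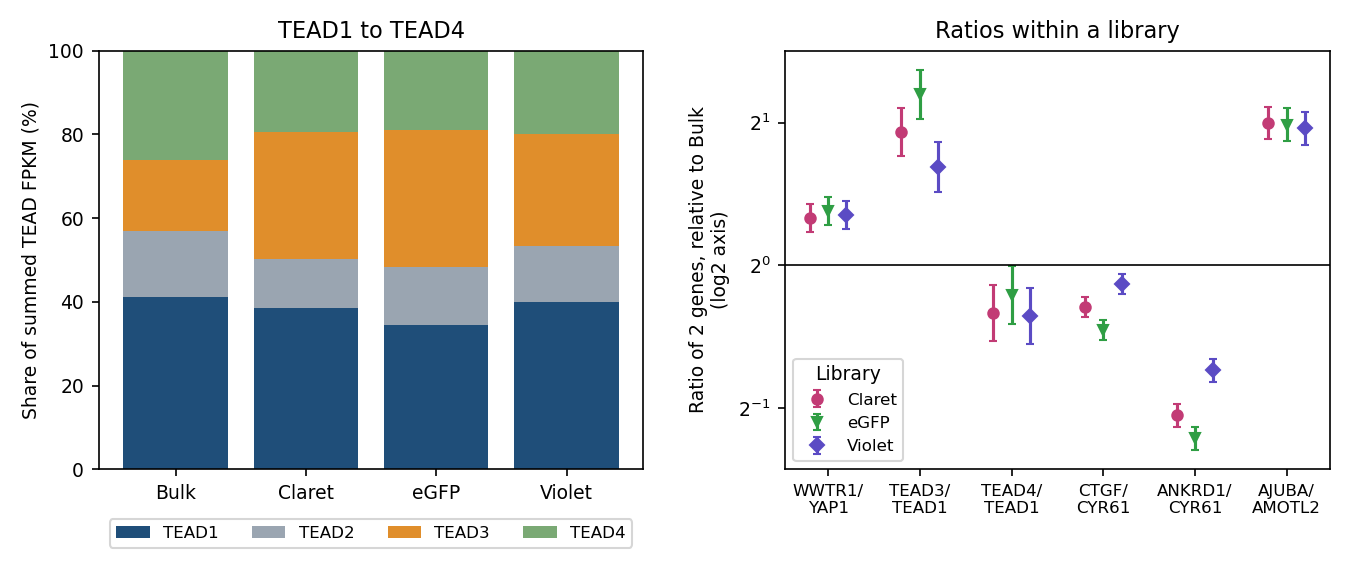
Left, share of each TEAD gene in the summed FPKM of TEAD1 to TEAD4 in each library. Right, ratio of 2 genes within a library relative to the same ratio in Bulk (log2 axis), with 95% intervals for counting error. The TEAD3 share is 17.1% in Bulk against 26.7% to 32.8% in the other libraries, and the WWTR1 to YAP1 ratio is 1.26 to 1.30 times that of Bulk.

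The TEAD factors, which bind DNA for YAP and TAZ, did not share 1 direction. TEAD1 (ENSG00000187079, chromosome 11, 12674591 to 12944483) was at 281 CPM in Bulk against 204 in Claret and 178 in eGFP, and 217 in Violet. Bulk was highest and eGFP lowest, with log2 ratios of -0.46 (-0.52 to -0.39), -0.66 (-0.72 to -0.59) and -0.37 (-0.44 to -0.31). TEAD4 (ENSG00000197905, chromosome 12, 2959330 to 3040673) was at 39.3 CPM in Bulk, then 22.7, 21.6 and 23.7 in Claret, eGFP and Violet. It had the lowest ratios of the members, -0.79 (-0.98 to -0.61), -0.86 (-1.06 to -0.67) and -0.72 (-0.92 to -0.54). After a correction for GC content it reached -1.003 in eGFP and was then called.

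TEAD3 (ENSG00000007866, chromosome 6, 35473597 to 35497076) was the TEAD gene above Bulk, at 34.5 CPM in Bulk against 47.8 in Claret and 50.2 in eGFP, and 42.9 in Violet. The log2 ratios were 0.47 (0.31 to 0.63), 0.54 (0.38 to 0.70) and 0.31 (0.15 to 0.48). Relative to Bulk, the ratio of TEAD3 to TEAD1 was 1.91 (95% interval 1.70 to 2.15) in Claret and 2.29 (2.04 to 2.58) in eGFP, and 1.61 (1.43 to 1.82) in Violet. With TEAD2, which is not a member and lay below Bulk at -0.77, -0.57 and -0.57, the summed TEAD level was 67.2 FPKM in Bulk and at most 51.7 in the others. TEAD1 held 41.2% of that sum in Bulk against 34.5% to 40.1% in the others, whereas TEAD3 went from 17.1% to 30.4%, 32.8% and 26.7% in Claret, eGFP and Violet. TEAD4 went from 26.1% to 18.9% to 19.9%.

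Between slow-cycling libraries 0 of the 10 members were called in any of the 3 pairs. The share of all genes called there was 0.713% between Claret and eGFP, 0.782% between Claret and Violet, and 0.926% between eGFP and Violet. Past counting error were 5, 4 and 6 members, against 12.3%, 17.1% and 16.8% of all genes. This threshold is passed more easily with more reads, so these shares are not compared at like depth. Each member had at least 343 reads in each library, while genes were kept from an average of 1 CPM. The CYR61 level in Violet was 0.24 (0.22 to 0.26) lower than Claret and 0.28 (0.26 to 0.30) lower than eGFP on the log2 scale. TEAD1 was lowest in eGFP, with log2 ratios of 0.20 for Claret against eGFP (0.12 to 0.27) and -0.28 for eGFP against Violet (-0.35 to -0.21). YAP1 and WWTR1 were both highest in Violet among the slow-cycling libraries, by 0.14 and 0.16 over Claret and 0.15 and 0.12 over eGFP. Under the assumed coefficient of variation of 0.2, edgeR's exact test gave an adjusted p of 1 for each member in these pairs.

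At the median, the kinase cassette that controls YAP and TAZ differed little from Bulk. Of the 8 core Hippo genes (STK3, STK4, SAV1, LATS1, LATS2, MOB1A, MOB1B and NF2), 0 were called in any library. Their medians were -0.093, -0.12 and -0.13 in Claret, eGFP and Violet. Of all genes kept, 11.2%, 11.8% and 11.5% were called higher and 6.71%, 7.62% and 6.95% lower, so 0 of 8 says little about this list. Past counting error were 0 of the 8 on the higher side and 4 on the lower in Claret, and 2 and 3 in both eGFP and Violet. LATS1, a kinase that phosphorylates YAP, was at -0.51, -0.63 and -0.53, and its paralog LATS2, itself a YAP target, at 0.13, 0.22 and 0.28. MOB1A, an activator of LATS, was at -0.49, -0.46 and -0.58, and its paralog MOB1B at 0.098, 0.43 and 0.38. In Claret, LATS2 and MOB1B were within counting error (exact binomial test, adjusted p = 0.115 and 0.207). These genes were picked for display after their values were seen.

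Of 26 upstream regulators, 25 were kept and 0 were called in any library, with medians of 0.058, 0.14 and 0.099. The shares of all genes called in Claret, eGFP and Violet were 11.2%, 11.8% and 11.5% higher and 6.71%, 7.62% and 6.95% lower. Past counting error were 9 of the 25 on the higher side and 8 on the lower in Claret, 10 and 7 in eGFP, and 11 and 7 in Violet. The atypical cadherin FAT1 had the lowest value in each library (-0.91, -0.85 and -0.67). WTIP, a LIM protein of the AJUBA family, reached 0.95 in eGFP and was called there with a filter at 10 CPM. Of the TEAD cofactor list (TEAD2 and VGLL1 to VGLL4), VGLL1 and VGLL2 had 0 reads in each library (up to 0.193 CPM). VGLL3, a vestigial-like protein that binds TEADs, was called higher in eGFP, from 80 reads in Bulk to 188, with 124 in Claret and 157 in Violet, and it was no longer kept with a filter at 10 CPM. In Violet it lay at 0.96 and was called with summed counts (1.003) and after the GC correction (1.002). VGLL4, which competes with YAP for TEADs, was at -0.31, -0.34 and -0.12.

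A wider published signature of 22 YAP/TAZ targets includes 4 of the members. Of its 18 other genes, 1 was called on the higher side in Claret and eGFP and 2 in Violet, and 0 were called lower. All 18 were kept, and over all genes 11.2%, 11.8% and 11.5% were called higher in Claret, eGFP and Violet. Past counting error were 9 on the higher side and 2 on the lower in Claret, 7 and 3 in eGFP, and 11 and 2 in Violet. Their medians were 0.061, 0.046 and 0.21, against 0.85, 0.73 and 0.81 for the 5 targets. CYR61, CTGF and AJUBA lay above the signature median in each library and AMOTL2 lay below it. ANKRD1 lay near it, at 0.15, 0.023 and 0.22. GADD45A, a stress-response gene also induced by other pathways, was called in all 3 libraries, with 418 reads in Bulk, then 1349, 1228 and 1088 in Claret, eGFP and Violet (log2 ratios 1.58, 1.54 and 1.38). IGFBP3, which binds insulin-like growth factors, was called in Violet alone, at 1.04 (0.93 to 1.14), against 0.13 in Claret and 0.11 in eGFP. Its difference between Violet and the other slow-cycling libraries was 0.90 and 0.92, under the 2-fold needed for a call. AXL, a receptor tyrosine kinase, was at 0.041, -0.10 and -0.25, and NT5E (CD73) at 0.56, 0.58 and 0.51. IGFBP3, AXL and NT5E were picked after their values were seen.

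**Figure D5:**
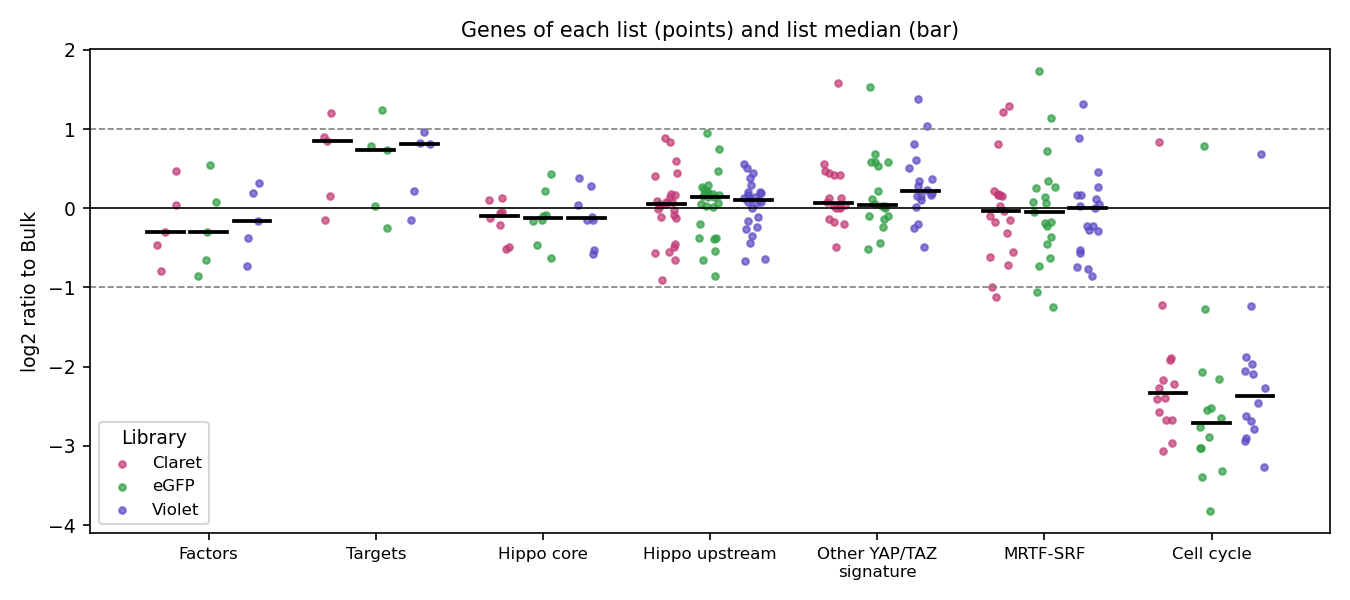
Log2 ratio to Bulk of the kept genes of each list (points) in Claret, eGFP and Violet, with the list's median as a bar; dashed lines mark 1 in size. Target medians lie at 0.73 to 0.85, medians of the Hippo, other YAP/TAZ signature and MRTF-SRF lists between -0.13 and 0.21, and medians of the cell-cycle list between -2.71 and -2.33.

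CYR61 and CTGF are also known targets of SRF with its actin-regulated MRTF coactivators. Of 20 genes of that pathway, 19 were kept, and 2 were called higher and 1 lower in Claret, 2 and 2 in eGFP, and 1 and 0 in Violet. The shares called higher are close to those of all genes (11.2%, 11.8% and 11.5%) or below them. Of all genes, 6.71%, 7.62% and 6.95% were called lower in Claret, eGFP and Violet. The medians were near 0, at -0.031, -0.052 and 0.0016. The sign changed with the filter at 10 CPM in Claret, and in Violet with that filter, DESeq2 size factors and the GC correction. ACTA2, smooth-muscle actin, was called higher in all 3 from few reads, 27 in Bulk and 74, 95 and 70. TAGLN was called higher in Claret and eGFP (1.21 and 1.14) and was at 0.88 in Violet. MRTFB was called lower in Claret and eGFP (-1.12 and -1.25) and was at -0.76 in Violet. THBS1 was called lower in eGFP (-1.06) and was at -0.99 in Claret and -0.86 in Violet. A filter at 10 CPM removed ACTA2 and left THBS1 under 2-fold in eGFP, so that 1, 1 and 0 genes were called higher in Claret, eGFP and Violet. ACTB, the cytoskeletal actin, was at -0.55, -0.63 and -0.57.

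Within the CCN family, CYR61 and CTGF lay above Bulk while NOV (CCN3) lay below it. NOV had 659 reads in Bulk, then 286, 280 and 345 in Claret, eGFP and Violet. It was called lower in Claret and eGFP (-1.31 and -1.24), and was at -0.93 in Violet. WISP1, WISP2 and WISP3 had 1 to 12 reads per library and were not kept.

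The cell-cycle genes linked to YAP/TAZ activity in cancer lines went the other way from CYR61, CTGF and AJUBA. Of 14 such genes, 13 were called lower in each slow-cycling library, with medians of -2.33 in Claret and -2.71 in eGFP, and -2.37 in Violet. Over all genes kept, 6.71%, 7.62% and 6.95% were called lower in Claret, eGFP and Violet. RRM2, the small subunit of ribonucleotide reductase, was at -3.07, -3.82 and -3.27, and FOXM1, a mitotic transcription factor, at -2.97, -3.32 and -2.94. BIRC5, CDC6, CDCA5 and AURKB followed, at -2.40 or lower in each library. MYC was the exception, at 0.83, 0.79 and 0.68, not called. The populations were sorted for slow division, and the part of cell-cycle state in the levels of the members was not tested.

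Genes with the most similar profile to 2 members were looked up among 9745 protein-coding genes with a mean of at least 10 CPM. The measure was the Euclidean distance of centred log2 CPM over the 4 libraries. Nearest to YAP1 were LMTK2 (0.011), SP1 (0.014) and ATXN7L1 (0.016), and 1601 genes lay within a distance of 0.2. Nearest to CYR61 were FAM83H (0.016), RTN4RL2 (0.025) and CCPG1 (0.040), with 125 genes within 0.2. FAM83H and RTN4RL2 had 102 and 81 reads in Bulk. The counting error of these distances was not assessed, so the order of the nearest genes is uncertain. With 4 libraries such likeness is a description.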

How the data were processed

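RNA sequencing of 4 libraries of MDA-MB-231 cells was used, 1 per group, grouped by title. The deposited counts are whole reads per gene with no normalization, and the submitters' processing notes name HISAT2 2.0.5 and featureCounts 1.5.0-p3. The genome build, the strand setting and the treatment of multiply mapped reads are not given in the sources used here. Gene spans equal those of GENCODE 29 (GRCh38) for 58724 of 58735 genes. The FPKM deposited by the authors imply library totals of 96.9% to 103.5% of the summed counts. They served to compare levels between genes. Marker levels, ranks and sums over genes were also compared between libraries in FPKM, which is not TMM-scaled. The implied total was 96.9% of the summed counts in Bulk and 103.5% in Violet, so this scale puts Bulk slightly higher relative to Violet. Of the members' 31-mers, 0% to 11.7% occur in transcripts of other genes.

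Counts were scaled by TMM (edgeR 4.0.16, R 4.3.3), with a prior count of 2 for log2 ratios. With 1 library per group the quasi-likelihood test of edgeR could not be fitted. Reads of 2 libraries were therefore compared by a two-sided exact conditional binomial test (scipy 1.17.1), adjusted by Benjamini-Hochberg over 14585 genes. The test was tried on simulated counts that held counting noise alone, so the trial says nothing about variation between cultures. Intervals are 95% Clopper-Pearson, converted to ratios; those for ratios of 2 genes use the normal approximation of the log odds ratio. They cover counting error only, as does the upper limit for 0 reads, set at 3 reads. Alternatives were summed counts, DESeq2 1.42.0 size factors, other filters and prior count, log2(FPKM + 1), a lowess correction for transcript GC content, edgeR's exact test with an assumed coefficient of variation, and groups from the treatment field. Members and lists were chosen with earlier results of these data known. A gene of the MRTF-SRF list is not reported here and was left out of its counts after the analysis. Named genes are the members, list genes called in all 3 slow-cycling libraries (at most 6 per list and direction), list genes called between slow-cycling libraries, and the 3 nearest in profile to YAP1 and CYR61; other names were chosen after their values were seen.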

Additional observations from a re-analysis of the deposited data

How the results depend on the processing

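Against Bulk, none of the 10 members' 30 log2 ratios changed sign under summed counts, DESeq2 size factors, no filter, a filter at 10 CPM, a prior count of 0.5 or the GC correction, and 1 did on log2(FPKM + 1), ANKRD1 in eGFP. Groups from the treatment field changed 17 of the 30 signs, by construction, since Bulk is then another library. Under that grouping 0 members were called in Claret and eGFP. The factor median became 0.16 in Claret and -0.085 in eGFP, the target median -0.81, 0.045 and -0.076 in Claret, eGFP and Violet, and CYR61 -0.96 in Claret. Between slow-cycling libraries that grouping gave 1 member called for Claret against eGFP and 1 for Claret against Violet, CYR61 at -1.24 in the latter. With the GC correction 2 members were called in eGFP. In Violet, 1 member was called with summed counts and 1 with the filter at 10 CPM, which also put the factor median at -0.083. The median of all genes moved by at most 0.048 under any scaling or filter. No paired analysis was possible because each group has 1 library. Depth limits TEAD4 and TEAD3 most, with 343 to 812 reads per library; the other members had at least 1991.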
